A study of Mus musculus with 6 samples.

Results

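Wnt-driven pericentral genes are the genes that hepatocytes next to the central vein of the liver lobule express under Wnt signalling, and 10 of them were followed here in livers with and without Hmgb2: Glul, Axin2, Lgr5, Tbx3, Oat, Rhbg, Slc1a2, Rnf43, Znrf3 and Lect2. They were taken by gene symbol, and 7 of the 10 have a named row in the array table, of 19505 named genes in all. Glul, Rhbg and Rnf43 matched no named row by symbol, gene identifier or older symbol and were not analysed here. Total liver RNA came from 6 male C57BL/6 mice aged 8 weeks, 3 wild type (WT) and 3 labelled HMGB2-KO, with no treatment or surgery named. Each liver gave 1 column of values from a Clariom S mouse array, which reads each gene through several short probes. The labels do not say which part of Hmgb2 was removed or in which cells. By the labels, replicates 1, 2 and 3 are animals 38, 40 and 31 among the WT mice and animals 39, 41 and 32 among the HMGB2-KO mice, with no litter or batch stated.

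Endothelial cells of the central vein secrete Wnt ligands and the R-spondin Rspo3. In the hepatocytes that receive them, beta-catenin escapes its destruction complex, enters the nucleus and acts with TCF and LEF proteins on target genes. The targets carry out pericentral work, chiefly the capture of ammonia and glutamate as glutamine, and some of them encode feedback regulators of the pathway itself.

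All values are log2 differences from a baseline of each gene's own row, which is not stated, after every array was set to a median of 0. They can be compared between livers, with a limit for WT replicate 2 given below. They give no absolute level, so neither the level of a gene nor that of one gene against another can be read. In whole liver RNA, fewer cells of a type and less RNA per cell cannot be told apart. Hmgb2, the check of the labels, was at 0.47, 0.36 and 0.42 in WT replicates 1 to 3 and at -0.66, -0.33 and -0.43 in HMGB2-KO replicates 1 to 3. The array with the largest offset was that of WT replicate 2. Its median over all rows as deposited was 0.26, against -0.05 to 0.01 on the other arrays, and 132 of its rows lay more than 2 log2 below every other array, against 4 to 33 elsewhere. Olfactory receptor rows, which should carry little liver signal, had a median of 0.51 on it and -0.12 to 0.02 on the others. Hepatocyte markers (Alb, Apoa1, Ttr, Serpina1b, Tat and Hnf4a) had a median of 0.12 on it as deposited, against -0.02 to 0.11 on the others. After centring their median was -0.13 on it, against 0.02 to 0.10. Centring thus set these markers lower on that array than on the others, and centred values of WT replicate 2 may be too low for such genes.

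Sequence around RefSeq transcription starts (GRCm38.p6, 250 bases before to 50 after) was found for 6 of the 10 genes, in 7 windows. The TCF/LEF core was searched as CTTTGAA and CTTTGAT on both strands. Its letters CAAAG, on the opposite strand, also begin the motif of the hepatocyte factor HNF4A. A match occurred in 2 of the 7 windows, those of Slc1a2 and Lect2, and in 8.65% of the 32851 windows of all genes. The windows of Glul, Axin2, Oat and Rnf43 hold neither spelling. The windows of Slc1a2, Oat and Lect2 are shown because Slc1a2 and Oat shared an order over the livers, described with the values, while Slc1a2 and Lect2 hold the motif. Capitals mark the match, all bases run 5′ to 3′ on the strand of the gene, and the Slc1a2 start lies inside the span of the gene.
Slc1a2, chr2:102706188-102706487, plus strand: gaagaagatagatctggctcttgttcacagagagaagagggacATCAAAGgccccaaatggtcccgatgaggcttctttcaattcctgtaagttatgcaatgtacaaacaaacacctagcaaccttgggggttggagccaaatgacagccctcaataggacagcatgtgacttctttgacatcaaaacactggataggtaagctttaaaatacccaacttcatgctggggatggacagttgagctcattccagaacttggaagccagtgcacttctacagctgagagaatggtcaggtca
Oat, chr7:132576349-132576648, minus strand: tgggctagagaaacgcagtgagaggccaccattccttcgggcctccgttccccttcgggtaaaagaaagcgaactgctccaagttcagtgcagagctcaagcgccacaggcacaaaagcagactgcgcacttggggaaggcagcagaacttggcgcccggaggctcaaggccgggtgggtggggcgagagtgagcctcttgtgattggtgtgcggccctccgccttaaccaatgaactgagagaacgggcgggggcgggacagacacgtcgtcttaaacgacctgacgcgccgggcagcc
Lect2, chr13:56548489-56548788, minus strand: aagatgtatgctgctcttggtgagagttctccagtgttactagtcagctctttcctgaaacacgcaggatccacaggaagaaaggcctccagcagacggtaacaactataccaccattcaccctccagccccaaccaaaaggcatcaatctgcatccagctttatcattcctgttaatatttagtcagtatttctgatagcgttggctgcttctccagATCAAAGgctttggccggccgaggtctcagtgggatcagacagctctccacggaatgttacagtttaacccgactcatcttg
The first base of the match ATCAAAG lies at -207 from the start in Slc1a2 and at -32 in Lect2. A match is a description of letters and not a binding site.

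None of the 7 measured genes differed between the genotypes beyond the spread between livers. In limma, 0 of 7 passed an adjusted p of 0.05, as did 0% of all 19505 genes, and 0 of 7 had an unadjusted p under 0.05, against 3.68% of all genes (717, or 837 by the per-gene test without moderation). Hmgb2 itself did not pass, at a log2 fold change of -0.89 (limma, adjusted p = 0.645, rank 5 of all genes by p). Failing the adjusted test therefore does not show that a gene is unchanged. Lgr5 and Axin2 had a log2 fold change above 0 and the other 5 genes one below 0, where 49.5% of all genes lie above 0. The median over the 7 was -0.15, beside -0.00 for all genes. For no member did the 3 HMGB2-KO livers lie on 1 side of all 3 WT livers, while 4.32% of all genes were separated upward and 5.35% downward. The member median was -0.08 without WT replicate 2 and 0.08 without WT replicate 1, so its sign depended on a single liver.

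**Figure D1:**
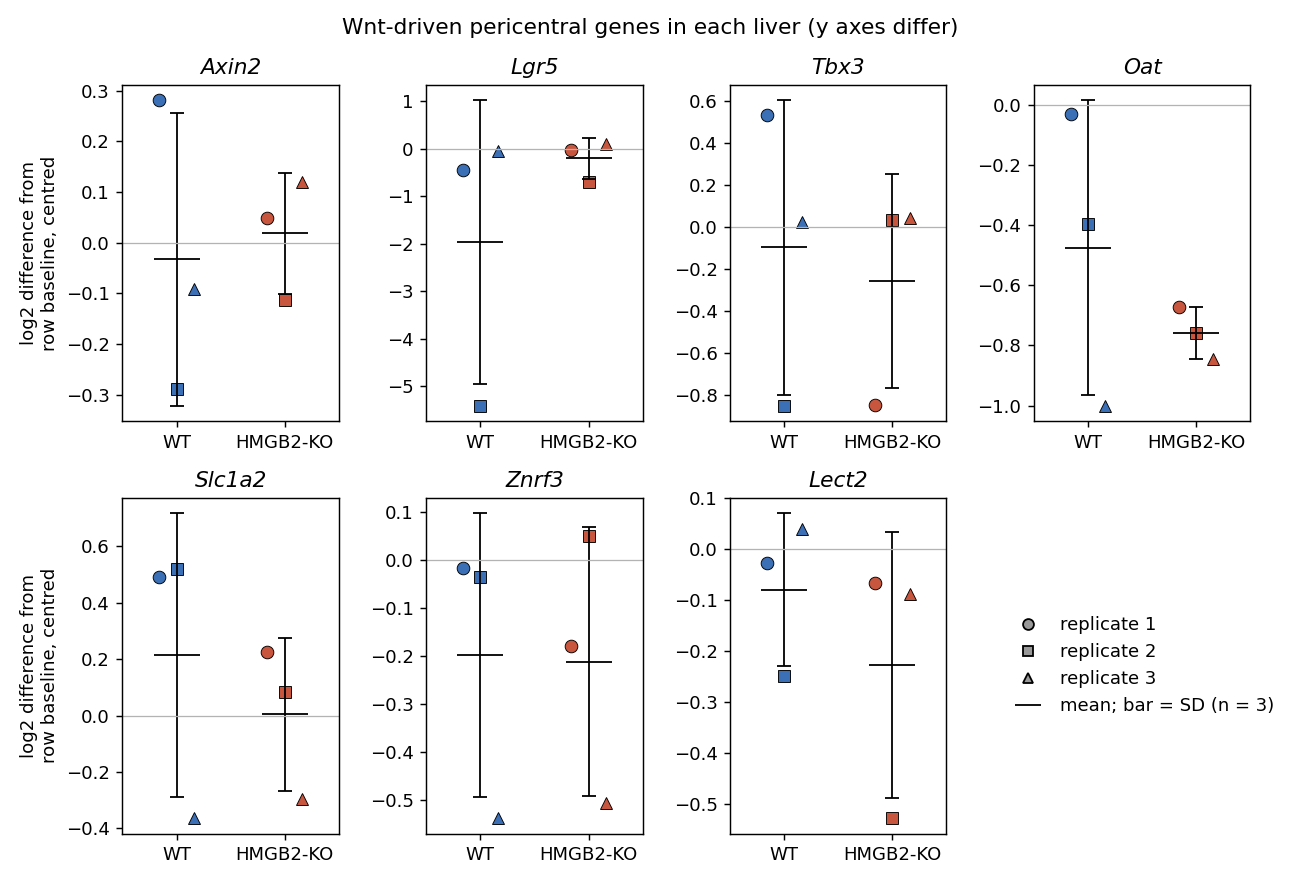
Values of the 7 measured genes in each liver, as log2 differences from the row baseline after centring, with 1 panel per gene, marker shape for the replicate number, and mean and SD for 3 livers per genotype (y axes differ). The genotypes overlap in every panel, WT replicate 2 lies at -5.41 for Lgr5, and the triangles of replicate 3 are the lowest points for Slc1a2, Znrf3 and Oat.

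Oat and Slc1a2 belong to the nitrogen work of pericentral cells. Oat, the mitochondrial ornithine aminotransferase that turns ornithine toward glutamate, was at -0.03, -0.40 and -1.0 in WT replicates 1 to 3 and at -0.67, -0.76 and -0.85 in HMGB2-KO replicates 1 to 3. The WT livers spanned the whole HMGB2-KO range, since WT replicates 1 and 2 were above it and WT replicate 3 below. The means were -0.47 ± 0.49 and -0.76 ± 0.09 (SD, n = 3 each). The log2 fold change was -0.28, and its 95% confidence interval ran from -0.83 to 0.26 (limma, adjusted p = 0.994, exact permutation p = 0.4).

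Slc1a2 encodes the glutamate transporter GLT-1, which brings glutamate into the cells that make glutamine. It was at 0.49, 0.52 and -0.36 in WT replicates 1 to 3 and at 0.23, 0.08 and -0.30 in HMGB2-KO replicates 1 to 3. The livers numbered 3 were the lowest of each genotype, and the other WT livers lay above the other HMGB2-KO livers. The log2 fold change was -0.21 with an interval of -0.82 to 0.40 (limma, adjusted p = 0.994). Without WT replicate 3 it was -0.50 for Slc1a2 (unadjusted p = 0.0327) and -0.55 for Oat (0.0135) in limma, both with an adjusted p of 0.875, and the number of members under an unadjusted 0.05 was then 2. HMGB2-KO replicate 3, the lowest of its genotype for both genes, stayed in that fit with no WT liver numbered 3 beside it. With both livers numbered 3 left out, the fold changes were -0.35 for Slc1a2 and -0.50 for Oat. Without WT replicate 1 alone they were -0.07 for Slc1a2 and -0.06 for Oat.

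Axin2 and Znrf3 encode feedback inhibitors that the pathway induces against itself. Axin2, a scaffold of the destruction complex and a widely used readout of Wnt activity, was at 0.28, -0.29 and -0.09 in WT replicates 1 to 3 and at 0.05, -0.11 and 0.12 in HMGB2-KO replicates 1 to 3. The HMGB2-KO livers lay inside the span of the WT livers. Its log2 fold change was 0.05 with an interval of -0.34 to 0.45 (limma, adjusted p = 0.999), or -0.07 with the values as deposited and -0.08 without WT replicate 2.

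Znrf3 is a ubiquitin ligase that, like Rnf43, clears Frizzled receptors from the cell surface. It was at -0.02, -0.04 and -0.54 in WT replicates 1 to 3 and at -0.18, 0.05 and -0.51 in HMGB2-KO replicates 1 to 3. Its genotype means were nearly the same, -0.20 ± 0.30 for WT livers and -0.21 ± 0.28 for HMGB2-KO livers (SD, n = 3 each), while the replicates numbered 3 were low in both. Its log2 fold change was -0.01 with an interval of -0.49 to 0.46 (limma, adjusted p = 0.999), and -0.13 as deposited.

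Lgr5, an R-spondin receptor that raises the Wnt response, showed the widest spread. It was at -0.45, -5.41 and -0.04 in WT replicates 1 to 3 and at -0.02, -0.69 and 0.10 in HMGB2-KO replicates 1 to 3. WT replicate 2 lay 4.73 log2 below the next liver, and the other 5 livers overlapped. Its range over the livers was larger than that of 99.9% of all genes. The log2 fold change of 1.76, with an interval of -1.19 to 4.72 (limma, adjusted p = 0.994), rested on that array and was 0.04 without it. The row is among the 132 in which WT replicate 2 is more than 2 log2 below every other array.

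Tbx3 encodes a T-box repressor that Wnt signalling maintains in pericentral hepatocytes. It was at 0.54, -0.85 and 0.02 in WT replicates 1 to 3 and at -0.85, 0.03 and 0.04 in HMGB2-KO replicates 1 to 3. Its low livers were 1 of each genotype, WT replicate 2 and HMGB2-KO replicate 1, which differed from each other by 0.0041. The log2 fold change was -0.16 with an interval of -1.04 to 0.72 (limma, adjusted p = 0.997). It was 0.16 without WT replicate 1, 0.13 without HMGB2-KO replicate 1 and -0.54 without WT replicate 2.

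Lect2 encodes a protein that hepatocytes secrete and is a known beta-catenin target in liver. It was at -0.03, -0.25 and 0.04 in WT replicates 1 to 3 and at -0.07, -0.53 and -0.09 in HMGB2-KO replicates 1 to 3. In each pair of livers with the same replicate number the HMGB2-KO value was the lower, with differences of -0.04, -0.28 and -0.13, but WT replicate 2 was below 2 of the HMGB2-KO livers. As deposited, its 3 WT livers lay between -0.01 and 0.01 and all 3 HMGB2-KO livers lower, at -0.10, -0.58 and -0.13, so the overlap arises with the centring of WT replicate 2. Lower HMGB2-KO values were common as deposited, where 4485 of all 19505 genes were above 0 and the median was -0.12. The share of all genes separated downward in those values was not counted. For Lect2 the log2 fold change was -0.15 with an interval of -0.54 to 0.24 (limma, adjusted p = 0.994), or 0.0028 without HMGB2-KO replicate 2.

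**Figure D2:**
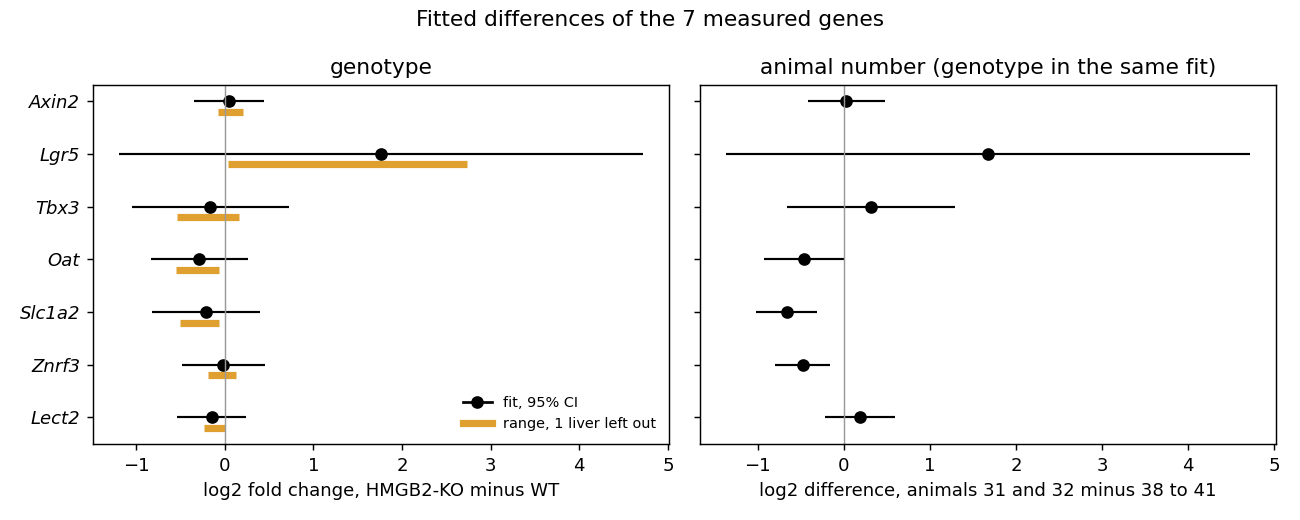
Fitted log2 differences of the 7 measured genes with 95% confidence intervals, HMGB2-KO minus WT on the left, where orange bars give the range with 1 liver left out, and animals 31 and 32 minus animals 38 to 41 on the right, with genotype in the same fit. Every genotype interval includes 0, and for animal number those of Slc1a2 (-1.01 to -0.31) and Znrf3 (-0.79 to -0.16) do not.

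Slc1a2, Znrf3 and Oat were lower in animals 31 and 32, which are replicate 3 of each genotype, than in all 4 animals numbered 38 to 41. Slc1a2 was at -0.36 and -0.30 in the former and between 0.08 and 0.52 in the latter. Znrf3 was at -0.54 and -0.51, against -0.18 to 0.05. Oat was at -1.0 and -0.85, against -0.76 to -0.03. In the fit with both genotype and animal number, the difference was -0.66 (SE 0.15, unadjusted p = 0.00325) for Slc1a2, -0.48 (SE 0.13, 0.00904) for Znrf3 and -0.46 (SE 0.20, 0.0525) for Oat. None passed limma's adjusted threshold, as 0.041% of all genes did, with adjusted p-values of 0.280, 0.402 and 0.589. Thus 3 of 7 genes were separated downward in this comparison, where 9.32% of all genes were, and 0 of 7 upward, where 10.4% were. A lower value with an unadjusted p under 0.05 was found in 2 of 7, where 4.59% of all genes had one. The same 3 genes were separated under quantile normalization and without any centring. The labels do not say what the numbers stand for, and this order was looked at after the values were seen.

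The other measured genes did not share that order. The difference between the animal numbers was 0.03 for Axin2, 0.32 for Tbx3, 0.19 for Lect2 and, through WT replicate 2, 1.68 for Lgr5, each with overlapping livers. Within animals 38 to 41 alone, HMGB2-KO minus WT was -0.50 for Oat (limma, unadjusted p = 0.0401, adjusted p = 0.982) and -0.35 for Slc1a2 (0.0716 and 0.982). Animals 31 and 32, 1 liver of each genotype, differed by 0.15 for Oat and 0.07 for Slc1a2 the other way, with no replicate.

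Among 22 measured pericentral genes outside this set, 8 were above 0 and 14 below, with a median of -0.13 (4 above 0 and -0.25 as deposited). None passed the adjusted test. Unadjusted, 1 was under 0.05 on each side, where 1.06% of all genes were on the higher and 2.61% on the lower side. Cyp2c54, a cytochrome P450, was at 0.58, 0.61 and 0.40 in WT replicates 1 to 3 and at 0.09, -0.00 and -0.18 in HMGB2-KO replicates 1 to 3. All HMGB2-KO livers were thus below all WT livers, with a log2 fold change of -0.56 (SE 0.13, limma adjusted p = 0.994). Cyp2c50 was at -0.24 (SE 0.12). These genes are close copies of each other, so their single values are uncertain. Slc16a10, a transporter of aromatic amino acids, lay the other way at 0.42 (SE 0.13). After centring, every HMGB2-KO liver was above every WT liver for this gene. As deposited its log2 fold change was 0.30, and WT replicate 2 lay above HMGB2-KO replicate 3. The pericentral P450 genes Cyp2e1 and Cyp1a2, looked up after the values were seen, were both at 0.06 (SE 0.16 and 0.12), and -0.05 as deposited. Cyp2e1 was at -0.06 without WT replicate 2.

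Of the 22, Lhpp, Slco1b2, Aspg and Cyp2a5 were lower in animals 31 and 32 than in all of animals 38 to 41, and Avpr1a was higher, named here after their values were seen. That is 4 of 22 downward, beside 9.32% of all genes, and 1 of 22 upward, beside 10.4%. Lhpp, a phosphatase gene of pericentral cells, was at -0.81 and -0.74 in animals 31 and 32 and at 0.47, 0.43, 0.08 and 0.04 in animals 38, 40, 39 and 41. Its difference was -1.03 (SE 0.15, limma adjusted p = 0.109). That of Avpr1a, which encodes a vasopressin receptor, was 1.19 (SE 0.37, adjusted p = 0.451). Among 14 periportal genes 1 was separated each way. The downward gene, Pck1, which encodes the gluconeogenic enzyme PEPCK, had a difference of -1.40 (SE 0.25, limma adjusted p = 0.161), larger than that of any member below 0.

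Periportal genes, which Wnt signalling keeps off in pericentral cells, had 10 of 14 above 0 and a median of 0.21 (8 of 14 and 0.09 as deposited). None passed the adjusted test, and 0 were under an unadjusted 0.05 in limma. The glucose-6-phosphatase gene G6pc was at 0.59 (SE 0.26, and 0.33 if HMGB2-KO replicate 1 was left out). Pigr, the receptor that carries antibodies into bile, was at 0.25 (SE 0.13). The P450 gene Cyp2f2 was at 0.25 (SE 0.13), with livers separated after centring. It was at 0.18 without WT replicate 2 and at 0.13 as deposited, where WT replicate 2 lay just above HMGB2-KO replicate 1.

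**Figure D3:**
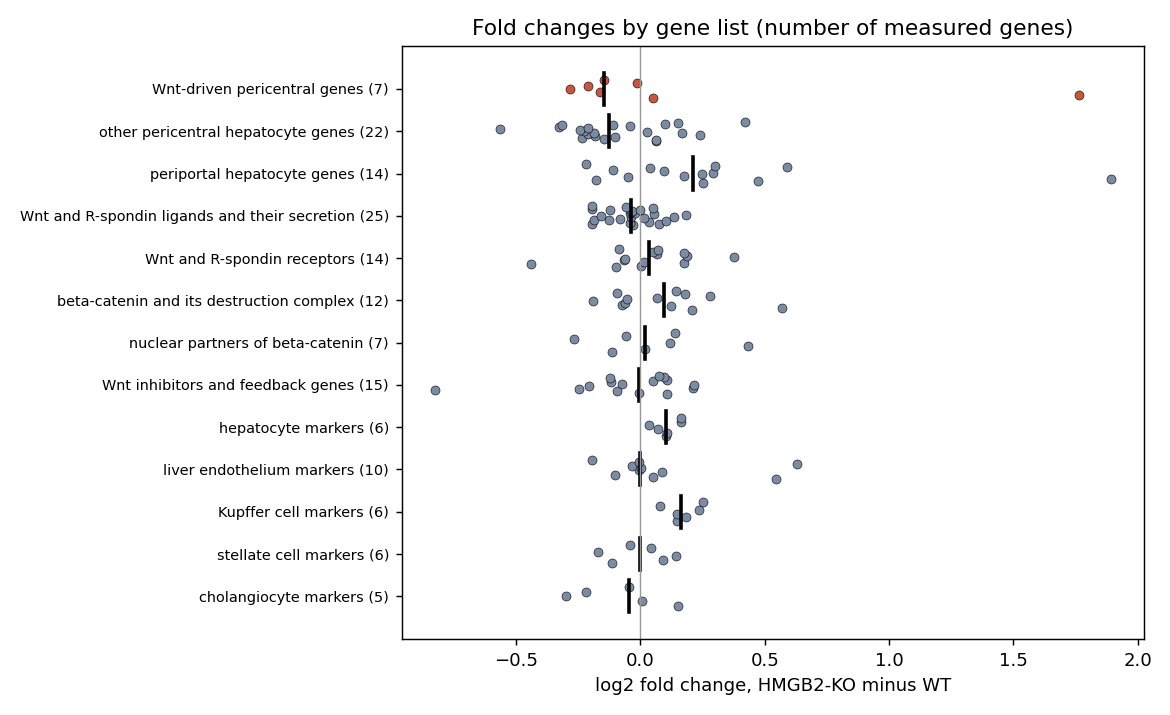
Log2 fold changes, HMGB2-KO minus WT, of the measured genes of each list, with 1 point per gene, a black bar at the list's median and a grey line at the median of all genes. The 7 Wnt-driven pericentral genes (red) have a median of -0.15, the other pericentral genes -0.13 and the periportal genes 0.21, and among the lists drawn those of hepatocyte and Kupffer cell markers lie wholly above 0 after centring.

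Upstream of these targets, the genes of Wnt and R-spondin ligands and their secretion had 8 of 25 above 0 and a median of -0.04, or 2 of 25 and -0.15 as deposited, where the median of all genes is -0.12. In limma, 0 of 25 had an unadjusted p under 0.05. Rspo3, the R-spondin of central vein endothelium, was at 0.12, 0.08 and 0.28 in WT replicates 1 to 3 and at -0.10, 0.03 and -0.03 in HMGB2-KO replicates 1 to 3. Its groups were separated by a small distance, with a log2 fold change of -0.19 and an interval of -0.47 to 0.09 (limma, adjusted p = 0.994). Porcn, the enzyme that acylates Wnt proteins for secretion, was at -0.20 (SE 0.13) and Wnt9a at 0.18 (SE 0.14, and 0.11 if HMGB2-KO replicate 1 was left out). Wnt2 and Wnt9b, the main ligands of liver endothelium and looked up after the values were seen, were at -0.19 (SE 0.16) and 0.05 (SE 0.13), or -0.31 and -0.07 as deposited and -0.05 and -0.03 without WT replicate 2.

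Receptors had 9 of 14 above 0 and a median of 0.03, or 4 of 14 and -0.08 as deposited. The Frizzled receptor gene Fzd8 was at -0.04, -0.23 and 0.19 in WT replicates 1 to 3 and at 0.34, 0.26 and 0.46 in HMGB2-KO replicates 1 to 3. Its livers were separated, and its log2 fold change was 0.38 (SE 0.15, limma unadjusted p = 0.0347, adjusted p = 0.994). Fzd3 was at -0.44 (SE 0.21), moving to -0.22 when WT replicate 2 was left out, and Fzd9 at 0.19 (SE 0.12).

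The list of beta-catenin and its destruction complex, of which 12 of 14 genes were measured, had 7 above 0 and a median of 0.10. It had 6 and -0.02 as deposited, and 6 and -0.00 without WT replicate 2. The tankyrase gene Tnks2, whose product marks Axin for removal, was at 0.28 (SE 0.14, or 0.18 without WT replicate 1). Csnk1a1, the kinase that primes beta-catenin for destruction, was at -0.19 (SE 0.11), and Dvl1, which relays the receptor signal, at 0.18 (SE 0.16, or 0.07 without HMGB2-KO replicate 2). None had an unadjusted p under 0.05. Among 7 nuclear partners, 4 were above 0, with a median of 0.02, or 3 and -0.10 as deposited and 2 and -0.01 without WT replicate 2. The transcription factor gene Lef1 was at 0.43 (SE 0.18, limma unadjusted p = 0.0407, adjusted p = 0.994), with HMGB2-KO livers at 0.07, 0.19 and 0.00 and WT livers at -0.27, -0.08 and -0.69. The log2 fold change of Lef1 was 0.26 without WT replicate 3 and 0.31 as deposited. Its livers were separated only after centring, since WT replicate 2 as deposited lay above all HMGB2-KO livers. The co-activator genes Bcl9l and Pygo2 were at -0.27 (SE 0.16, or -0.12 without WT replicate 3) and 0.14 (SE 0.14, or 0.02 without HMGB2-KO replicate 3).

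Among 15 Wnt inhibitors and feedback genes, 7 were above 0, with a median of -0.00. As deposited 2 were, with a median of -0.12, and without WT replicate 2 there were 9, with a median of 0.06. Dkk4, a secreted inhibitor of the LRP coreceptors, was at 0.49, 0.51 and -0.03 in WT replicates 1 to 3 and at -0.58, -0.46 and -0.46 in HMGB2-KO replicates 1 to 3. The lowest WT liver was WT replicate 3, and it still lay above every HMGB2-KO liver. Its log2 fold change was -0.82 with an interval of -1.22 to -0.43, and between -1.0 and -0.73 with 1 liver left out. It ranked 24 of all genes by p (unadjusted p = 0.00149), the smallest p among all the lists here, but its adjusted p in limma was 0.994 and its exact permutation p 0.1, the smallest that 3 against 3 livers allow. The other inhibitor genes with the smallest p were the Frizzled decoys Sfrp1, at -0.25 (SE 0.16, or -0.14 without WT replicate 2), and Sfrp2, at 0.21 (SE 0.14, or 0.09 without WT replicate 3).

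**Figure D4:**
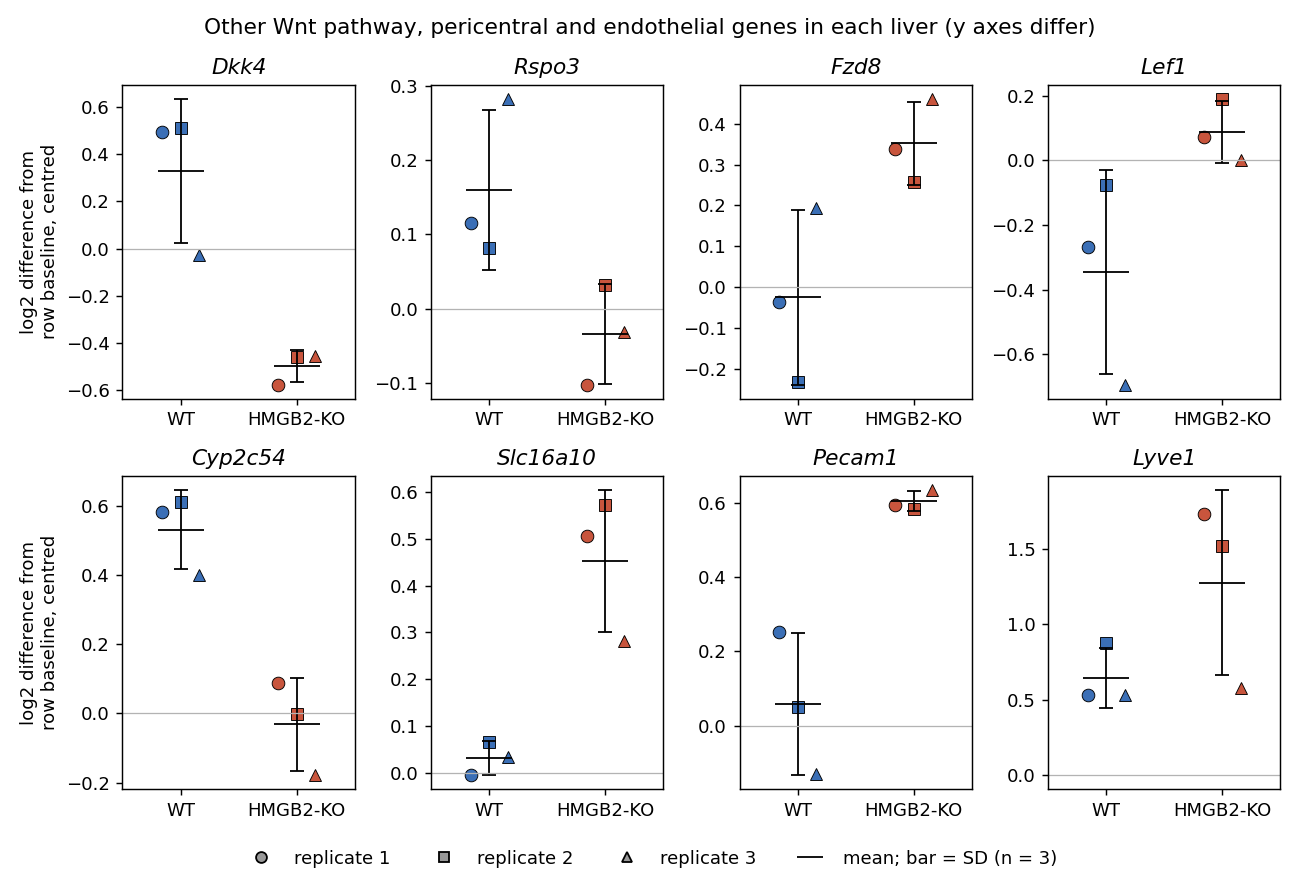
Values of 8 genes outside the set in each liver, as log2 differences from the row baseline after centring, with marker shape for the replicate number and mean and SD for 3 livers per genotype (y axes differ). HMGB2-KO livers lie below WT livers for Dkk4, Rspo3 and Cyp2c54 and above them for Fzd8, Lef1, Slc16a10 and Pecam1, while those of Lyve1 overlap. For Lef1 and Slc16a10 the livers overlap in the values as deposited, through WT replicate 2. No gene passed the adjusted test.

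Markers of liver endothelium, the source of the ligands, had 5 of 10 above 0 and a median log2 fold change of -0.00, or 2 of 10 and -0.12 as deposited. Pecam1, which encodes the endothelial surface protein CD31, was at 0.25, 0.05 and -0.13 in WT replicates 1 to 3 and at 0.59, 0.58 and 0.63 in HMGB2-KO replicates 1 to 3, a log2 fold change of 0.55 (SE 0.14, limma adjusted p = 0.994). The sinusoidal marker Lyve1 was at 0.63 (SE 0.29), and leaving out HMGB2-KO replicate 1 or 3 gave 0.40 or 0.98. The receptor gene Kit, next by p, lay the other way at -0.19 (SE 0.17), or -0.07 without WT replicate 1. By liver and after centring, the median of the 10 markers was between 0.32 and 0.42 in WT and between 0.53 and 0.55 in HMGB2-KO. The median of their fold changes was not above 0. As deposited the livers were not separated, since the marker median of WT replicate 2 lay above that of every HMGB2-KO liver. The part of endothelium in the values of Rspo3 and the members was not tested.

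Among the other cell types, all 6 Kupffer cell markers were above 0, with a median of 0.17 (5 of 6 and 0.05 as deposited) and livers that overlapped, from 0.20 to 0.44 in WT and from 0.32 to 0.58 in HMGB2-KO. All 6 hepatocyte markers were above 0 after centring, with a median of 0.10, but 2 of 6 as deposited. Stellate cell markers had 3 of 6 above 0, or 1 as deposited, cholangiocyte markers 2 of 5, or 1 as deposited, and T and B cell markers 5 of 5, or 1 of 5 as deposited. Only 1 of 4 red cell markers, Alas2, had a row, at -0.06. None of these genes had an unadjusted p under 0.05 in limma. Whether a marker is read above background cannot be told, since the values give no level.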

How the data were processed

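The deposited table gives 22206 rows for 6 livers as log values of unstated base, read as log2, with each row set against its own baseline. How probes were summarized, arrays normalized and baselines set is stated in no header or label. Per the labels' protocols, biotin labelling was run in duplicate, and the table has 1 column per liver. The platform annotation named 19572 rows, and the row with the highest mean was kept for the 55 genes with several, none of them a member, leaving 19505 genes. Each array was centred on its median. The genotype test was the two-sided moderated test of limma 3.58.1 (R 4.3.3), with Benjamini-Hochberg adjustment over all 19505 genes. The fit was also run on simulated data with independent normal noise for each gene. Those data held no array offset and no difference between animal numbers, so they do not show how the fit behaves with either. With 3 arrays per genotype, their number limits the precision. The labels call the livers separate animals.

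The members and lists were chosen with earlier results of these data known, so lists are described by counts and medians without a test. The text names every measured member and, from each other list, up to 3 genes with the smallest p. The rule also asked for the genes most like Glul, which was not analysed here. Same-numbered livers of the genotypes had correlated deviations of 0.04, 0.13 and 0.29 over all genes, and differently numbered livers had -0.21 to 0.10. For each WT liver the same-numbered HMGB2-KO liver gave the highest value. The labels state no litter or batch, and the main fit did not treat the numbers as pairs.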

Additional observations from a re-analysis of the deposited data

How the results depend on the processing

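No member passed the adjusted threshold under any of the 16 alternatives (smallest adjusted p 0.863), and 0 genes of all did, with 601 to 946 under an unadjusted 0.05. Lgr5, Oat and Slc1a2 kept their sign throughout, but several of the alternatives cannot move a member's fold change and say nothing of its sign. These vary the moderation, add the replicate block or the animal number, or change the rows or genes kept. Axin2 turned to -0.067 with the values as deposited, -0.041 with array weights, -0.029 within animals 38 to 41 and -0.077 without WT replicate 2. With 1 liver left out, Axin2 ranged from -0.077 to 0.21, Lect2 from -0.23 to 0.0028, Tbx3 from -0.54 to 0.16, Znrf3 from -0.19 to 0.13, Lgr5 from 0.04 to 2.73, Oat from -0.55 to -0.06 and Slc1a2 from -0.50 to -0.06. The members' median was -0.27 as deposited and between -0.15 and 0.076 with 1 liver left out. Members above 0 numbered 1 as deposited, with array weights and within animals 38 to 41, and 2 to 4 with 1 liver left out. Members under an unadjusted 0.05 numbered 1 within animals 38 to 41 and 0 to 2 with 1 liver left out. The causes were not tested, except that centring adds 0.12 to every fold change. With the replicate number as a block, no fold change can move, since each number has 1 liver of each genotype, and only the p-values can. The unadjusted p in limma went from 0.204 to 0.0958 for Lgr5, from 0.445 to 0.206 for Slc1a2 and from 0.262 to 0.173 for Oat. For Tbx3 it went from 0.685 to 0.709. With that block, 0 genes passed the adjusted threshold and 858 were under an unadjusted 0.05. The deviations of HMGB2-KO replicate 1 correlated more with those of WT replicate 2 (0.10) than with those of WT replicate 1 (0.04). The array's signal over background is unknown here, so a gene too dim to be read cannot be told from an unchanged gene.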
